A study of Mus musculus with 27 samples.

Results

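The metallothioneins Mt1, Mt2 and Mt3, listed in lower case as mt1, mt2 and mt3 in the deposited table, were followed across the cortex of 5xFAD mice that received a retromer stabilizer or vehicle. The members were chosen by gene symbol, 3 of 26264 symbols in the table, and all 3 were among the 12976 genes tested. The fourth mouse metallothionein, Mt4, was listed at 0 in 25 of 27 libraries and had at most 2 fragments in the others.

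All mice were 16-week-old females of the 5xFAD line on a C57BL6 background, which carries transgenes with familial Alzheimer's disease mutations under a neuronal promoter, so vehicle controls carried them too. R55 and R33, both thiophene thioureas described as stabilizers of the retromer complex, were injected into the cortex of one hemisphere at 10 mM in 500 nL, and vehicle mice received the same DMSO and cyclodextrin solution without drug. Small cortical blocks around the injection site and from the contralateral hemisphere were taken 24 h later and sequenced as separate libraries. This gave 4 injected and 4 contralateral libraries from 4 vehicle mice, 5 and 4 from 5 R33 mice, and 5 and 5 from 5 R55 mice. The mice are named by their label letters, and 13 of 14 had both hemispheres. No 5xFAD mouse without an injection and no mouse without the transgenes entered the comparisons, so each difference is one among injected 5xFAD mice.

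Metallothioneins are very small cytosolic proteins that are very rich in cysteine and bind zinc and copper in clusters. Mt1 and Mt2 are found in most tissues and in the brain mainly in astrocytes, and their transcription is raised by zinc through the transcription factor Mtf1, and also by glucocorticoids, oxidative stress and interleukin 6 signalling. Mt3 is the brain form, expressed in astrocytes and in neurons that store zinc in synaptic vesicles, and is known as a growth inhibitory factor that is poorly induced by metals.

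The 3 genes lie on one strand of chromosome 8 with Mt4, within 43.1 kb from 94863825 to 94906955 of GRCm39, the build used for alignment, and each has 3 exons. In GENCODE release M39, Mt3 spans 94879220 to 94881088, Mt2 94898819 to 94900207 and Mt1 94905710 to 94906955. The coding sequences from GRCm39 are shown because they define the family and because reads from similar genes can be shared between them. Capitals mark the cysteine codons, and the stop codon is left out.
Mt1: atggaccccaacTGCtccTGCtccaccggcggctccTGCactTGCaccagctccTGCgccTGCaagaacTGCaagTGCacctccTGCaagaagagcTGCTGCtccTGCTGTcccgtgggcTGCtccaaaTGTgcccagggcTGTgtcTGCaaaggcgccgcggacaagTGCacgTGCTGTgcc
Mt2: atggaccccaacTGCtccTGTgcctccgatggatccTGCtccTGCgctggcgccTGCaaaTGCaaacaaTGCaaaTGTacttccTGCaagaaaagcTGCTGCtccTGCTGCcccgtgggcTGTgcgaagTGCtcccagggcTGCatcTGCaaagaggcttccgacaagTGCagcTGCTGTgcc
Mt3: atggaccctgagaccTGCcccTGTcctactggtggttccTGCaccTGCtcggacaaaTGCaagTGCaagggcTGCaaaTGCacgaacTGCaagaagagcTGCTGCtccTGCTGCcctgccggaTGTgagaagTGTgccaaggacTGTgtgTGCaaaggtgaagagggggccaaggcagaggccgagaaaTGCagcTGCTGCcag
Each gene has 20 cysteine codons. They make up 32.8% of the 61 codons of Mt1 and of Mt2 and 29.4% of the 68 codons of Mt3. In a pairwise alignment Mt1 and Mt2 were identical at 79.2% of columns, Mt1 and Mt3 at 68.4%, and Mt2 and Mt3 at 68.8%. The longest run shared by 2 of the full transcripts was 20 bases for Mt1 and Mt2, 27 for Mt1 and Mt3 and 20 for Mt2 and Mt3. How the counting treated a read that fits more than one gene is not given in the sources used here. The noncoding gene Gm45774 overlaps Mt2 on the other strand. The library kit marks strand, but whether the counting used it is also not given, so the Mt2 value carries that uncertainty.

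Metal response elements, the short DNA motif bound by Mtf1, were searched in the 400 bases before each start codon. The letters TGCACNC and TGCGCNC on both strands were counted as matches. Mt2 had 6 matches, Mt1 5 and Mt3 3. At least 1 match was present in the same window of 31.8% of 20123 protein-coding genes, at least 3 in 3.16%, at least 5 in 0.273% and at least 6 in 0.0795%. The antioxidant response element TGACNNNGC had 1 match before Mt1, 1 before Mt2 and 0 before Mt3, against 14.7% of all genes with a match, and no such match overlapped a metal response element. For each of the metal-inducible pair the stretch of 30 bases with the most matches is shown, the first where stretches tied. Capitals mark its metal response elements. Both stretches lie in the first exon as annotated, ahead of the coding part, on the plus strand of GRCm39 at chr8:94905717-94905746 for Mt1 and chr8:94899302-94899331 for Mt2.
Mt1: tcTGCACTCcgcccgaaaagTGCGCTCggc
Mt2: gcGTGTGCAggcggcgggggcGCGTGCAtg
Each stretch holds 2 matches, in the same orientation as the gene for Mt1 and in the opposite one for Mt2. Before Mt1 another stretch of 30 bases also holds 2, at -138 to -132 and -124 to -118 from the start codon, on opposite strands. The TATA box letters TATAAA matched at -101 to -96 before Mt1 and at -95 to -90 before Mt2, nearer the start codon than the stretches shown. Such a match stood before 19.7% of all genes. Where transcription starts was not examined, so the annotated exon does not show that these stretches are transcribed. A match is a match of letters, and no binding was measured.

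**Figure D1:**
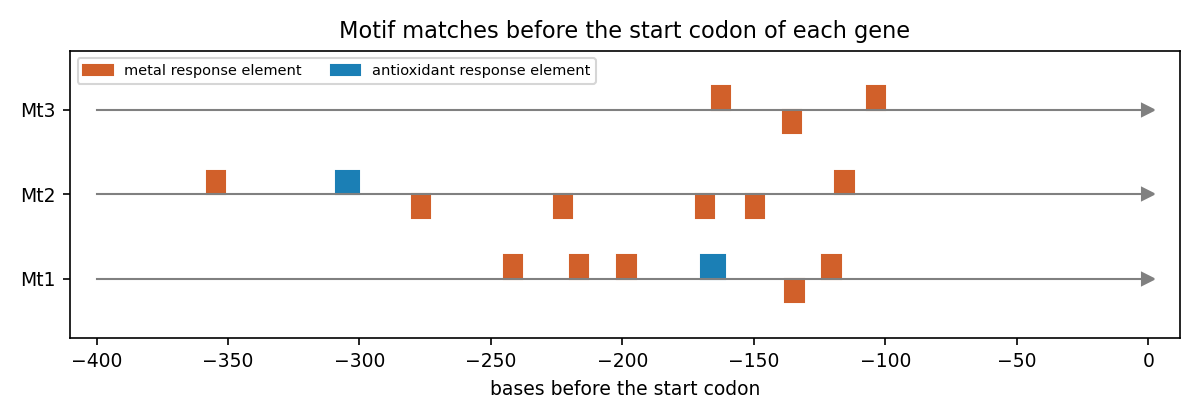
Motif matches in the 400 bases before the start codon of Mt1, Mt2 and Mt3, with the distance from the start codon in bases on the x axis. Boxes above a line are on the gene's strand and boxes below it on the opposite strand; Mt2 holds 6 metal response elements, Mt1 5 and Mt3 3, and only Mt1 and Mt2 hold an antioxidant response element.

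Expression was measured as FPKM, fragments scaled to the gene's length and to the total of counted fragments, which allows levels to be compared between genes per length. The lengths behind the deposited values were 542 bp for Mt1, 556 bp for Mt2 and 538 bp for Mt3, while the GENCODE transcripts used here have 549, 682 and 865 bases. With the latter lengths the median of Mt3 would lie below that of Mt1, so their order depends on the length used. Libraries held 15932196 to 38077026 counted fragments. Over the 27 libraries Mt3 ranged from 296 to 718 FPKM with a median of 432, Mt1 from 221 to 681 with a median of 387, and Mt2 from 88.9 to 331 with a median of 184. Between 1252 and 11383 fragments stood behind each value, so counting error is small beside the spread between mice. Mt3 ranked between 35 and 110 among all symbols by FPKM, Mt1 between 37 and 169, and Mt2 between 140 and 679. The ratio of Mt2 to Mt1 ran from 0.383 to 0.581 over libraries, so Mt2 was below Mt1 in each of them, whereas the ratio of Mt3 to Mt1 ran from 0.905 to 1.40 and the order of these genes differed between libraries.

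In the injected hemisphere of vehicle mice J, M, L and AH, Mt1 measured 437, 404, 326 and 387 FPKM, and in their contralateral hemisphere 434, 349, 221 and 348. In the injected hemisphere of R33 mice K, O, N, AD and AE it measured 304, 490, 470, 681 and 467 FPKM, and contralaterally 261, 350, 405 and 377 in K, O, N and AD. In the injected hemisphere of R55 mice P, Q, R, AA and AB it measured 300, 242, 369, 435 and 387 FPKM, and contralaterally 357, 562, 477, 421 and 397. The ranges of all 6 groups overlapped, and the lowest and highest libraries were the contralateral one of vehicle mouse L and the injected one of R33 mouse AD.

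Mt2 measured 201, 155, 139 and 189 FPKM in the injected hemisphere of vehicle mice J, M, L and AH, and 190, 141, 88.9 and 156 contralaterally. After R33 it measured 123, 230, 180, 331 and 238 FPKM in the injected hemisphere of K, O, N, AD and AE, and 114, 155, 174 and 184 contralaterally in the first 4 of these. After R55 it measured 167, 102, 184, 253 and 189 FPKM in the injected hemisphere of P, Q, R, AA and AB, and 200, 267, 228, 208 and 179 contralaterally. The contralateral R55 libraries lay mostly above the contralateral vehicle libraries, with 4 of 5 above the highest of them, while the injected libraries of R55 and vehicle mice overlapped. The same mice marked the extremes as for Mt1, with vehicle mouse L lowest and R33 mouse AD highest.

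Mt3 measured 408, 441, 385 and 432 FPKM in the injected hemisphere of vehicle mice J, M, L and AH, and 558, 408, 309 and 360 contralaterally. After R33 it measured 395, 461, 425, 718 and 486 FPKM in the injected hemisphere of K, O, N, AD and AE, and 351, 406, 467 and 462 contralaterally in K, O, N and AD. After R55 it measured 364, 296, 399, 480 and 433 FPKM in the injected hemisphere of P, Q, R, AA and AB, and 372, 667, 496, 518 and 468 contralaterally. All 6 groups overlapped, and the injected hemisphere of R33 mouse AD was again the highest library.

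**Figure D2:**
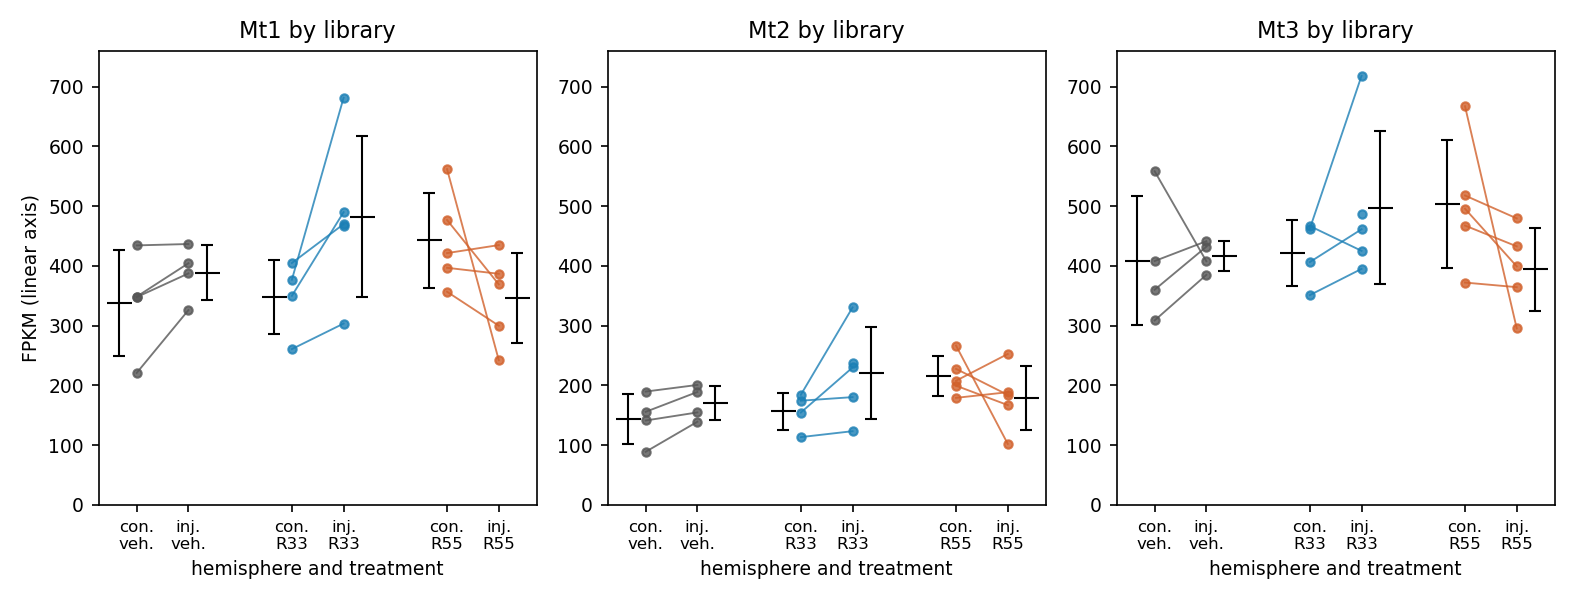
FPKM of Mt1, Mt2 and Mt3 in each library on a linear axis, contralateral (con.) and injected (inj.) hemisphere by treatment (veh., vehicle). Points joined by a line are from 1 mouse, and black bars give the mean and SD of each group of 4 or 5 libraries; the lines of Mt1 point up in all 4 vehicle pairs and all 4 R33 pairs and down in 4 of 5 R55 pairs.

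To ask whether the drugs changed metallothionein expression, the treatments were compared over both hemispheres with limma, where the hemispheres of a mouse count as separate libraries. The means over mice of Mt1 were 363 ± 67.0 FPKM after vehicle (SD, n = 4), 427 ± 91.0 after R33 (SD, n = 5) and 395 ± 40.0 after R55 (SD, n = 5). For Mt2 they were 157 ± 34.8, 197 ± 54.5 and 198 ± 20.6 FPKM, and for Mt3 413 ± 56.9, 465.9 ± 80.5 and 449 ± 50.1 FPKM. The 3 means were thus all higher after either drug than after vehicle, by less than the spread between mice for Mt1 and Mt3.

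None of the 3 members was called between R55 and vehicle at an adjusted p under 0.05 (limma, Benjamini-Hochberg over all genes tested), where 0.00771% of tested genes were called. None passed an unadjusted p under 0.05 either, against 8.45% of tested genes. The 1096 genes behind this share became 519 when the fit allowed for correlated hemispheres and 440 with 1 value per mouse, and the 1 called gene was then not called, so the share rests partly on counting both hemispheres. The largest difference was that of Mt2, with a log2 fold change of 0.32 (SE 0.187, 95% interval -0.06 to 0.71, unadjusted p = 0.0967, adjusted p = 0.608). With correlated hemispheres allowed for, the SE of Mt2 was 0.228 and its unadjusted p 0.168 in limma. With 1 value per mouse they were 0.1985 and 0.126. For Mt1 and Mt3 the log2 fold changes were 0.11 (SE 0.164) and 0.11 (SE 0.135), with adjusted p of 0.814 and 0.782. Removal of each library's trend on transcript length changed the direction of both, to -0.01 and -0.01. Without vehicle mouse L, Mt1 measured -0.02 and Mt2 0.17, and without vehicle mouse J 0.21 and 0.44. Without R55 mouse Q, Mt2 measured 0.38 and passed the unadjusted threshold (unadjusted p = 0.0361, adjusted p = 0.624 in limma).

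No member was called between R33 and vehicle, against 0.0% of tested genes, and none passed an unadjusted p under 0.05, against 5.87%. The log2 fold changes were 0.19 for Mt1 (SE 0.168, adjusted p = 0.854), 0.25 for Mt2 (SE 0.192, adjusted p = 0.850) and 0.16 for Mt3 (SE 0.139, adjusted p = 0.854), all in limma. Without R33 mouse K, which held the lowest Mt1 of the R33 mice, Mt1 and Mt2 measured 0.34 and 0.42, and without vehicle mouse L 0.06 and 0.10. Without R33 mouse AD, which held the highest, Mt1, Mt2 and Mt3 measured 0.10, 0.12 and 0.07.

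R55 and R33 were injected at the same dose and time, and their difference was small for each member. None was called, against 0.0% of tested genes, and none passed the unadjusted threshold, against 1.15%. The log2 difference of R55 minus R33 was -0.08 for Mt1 (95% interval -0.40 to 0.25), 0.08 for Mt2 (-0.30 to 0.45) and -0.05 for Mt3 (-0.32 to 0.22). These intervals reach -0.40 for Mt1 and 0.45 for Mt2, so they do not show that the compounds act alike.

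The ratio of Mt2 to Mt1 is less affected by what moves both genes in a library. Its mean over mice was 0.431 ± 0.0331 after vehicle (SD, n = 4, range 0.394 to 0.468), 0.456 ± 0.0430 after R33 (SD, n = 5, range 0.408 to 0.509) and 0.5003 ± 0.0462 after R55 (SD, n = 5, range 0.448 to 0.558). The R55 and vehicle ranges overlapped, and the ratio was not tested. The ratio of Mt3 to Mt1 was 1.15 ± 0.0946, 1.12 ± 0.124 and 1.14 ± 0.0528 in the same order.

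The mouse labels fall into a series of 1 letter and a series of 2 letters, whose meaning the labels do not give. Among 1-letter mice, 3 per treatment, the mean log2 difference of R55 minus vehicle was 0.07 for Mt1, 0.31 for Mt2 and 0.02 for Mt3. Among 2-letter mice, 2 R55 mice against 1 vehicle mouse, it was 0.16, 0.26 and 0.26. The direction was therefore the same in both series for each member, and with the series as a covariate the log2 fold changes were 0.08, 0.27 and 0.08, none called.

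The hemispheres were compared to ask how the injection itself bears on these stress-responsive genes. Over all treatments the log2 difference of injected minus contralateral was 0.08 for Mt1 (SE 0.133), 0.11 for Mt2 (SE 0.152) and -0.04 for Mt3 (SE 0.110). No member was called in limma, against 0.0% of tested genes, and none passed the unadjusted threshold, against 3.47%. These averages hold differences of opposite sign in the treatments.

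In vehicle mice Mt1 was higher in the injected hemisphere in 4 of 4 mice, by 0.01 in J, 0.21 in M, 0.16 in AH and 0.56 in L on the log2 scale. Mt2 was higher in 4 of 4 by 0.08 to 0.64, and Mt3 in 3 of 4, with -0.45 in J. The fitted differences were 0.23 for Mt1 (SE 0.218, unadjusted p = 0.294), 0.28 for Mt2 (SE 0.263, unadjusted p = 0.292) and 0.06 for Mt3 (SE 0.189, unadjusted p = 0.754) in limma. Without mouse L they were 0.13, 0.16 and -0.03, and without mouse J 0.31, 0.35 and 0.23. None was called, against 0.0% of tested genes, and none passed the unadjusted threshold, against 1.08%.

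In R33 mice Mt1 was higher in the injected hemisphere in 4 of 4 mice, by 0.22 in K, 0.48 in O, 0.21 in N and 0.85 in AD. Mt2 was higher in 4 of 4 by 0.05 to 0.84, and Mt3 in 3 of 4, with -0.13 in N. Mt1 had a fitted difference of 0.44 (SE 0.207, 95% interval 0.02 to 0.87, unadjusted p = 0.0429, adjusted p = 0.999 in limma), Mt2 of 0.44 (SE 0.249, unadjusted p = 0.0900) and Mt3 of 0.21 (SE 0.180, unadjusted p = 0.246). None was called, against 0.0% of tested genes, and 1 of 3 members passed the unadjusted threshold, against 2.84%. The fit includes mouse AE, which has only its injected hemisphere. Without mouse AD the differences were 0.35, 0.36 and 0.12.

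In R55 mice the pattern was the other way. Mt1 was lower in the injected hemisphere in 4 of 5 mice, by -0.25 in P, -1.21 in Q, -0.37 in R and -0.04 in AB, against 0.05 in AA. Mt3 was lower in 5 of 5, from -1.17 in Q to -0.03 in P, and Mt2 in 3 of 5, from -1.38 in Q to 0.28 in AA. The fitted differences were -0.36 for Mt1 (SE 0.195, unadjusted p = 0.0745), -0.32 for Mt2 (SE 0.235, unadjusted p = 0.191) and -0.35 for Mt3 (SE 0.169, 95% interval -0.70 to 0.00, unadjusted p = 0.0511) in limma, with an adjusted p of 0.904 for each. None was called, against 0.0% of tested genes, and none passed the unadjusted threshold, against 3.66%.

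Mouse Q carries a large part of the R55 values. Its contralateral hemisphere held 562 FPKM of Mt1, the highest contralateral library, and its injected hemisphere 242 FPKM, the lowest injected library. Without this mouse the fitted differences were -0.15 for Mt1, -0.05 for Mt2 and -0.14 for Mt3. The hemispheres of mouse Q stood apart in other genes as well. The median log2 difference of the other 283 tested genes of 400 to 700 bp, the length class of the metallothioneins, was -0.78 in Q, between -0.25 and 0.04 in the other R55 mice, and 0.53 in R33 mouse AD. Each member's difference in Q and in AD was thus in the direction of, and larger than, the median of its length class in that mouse. With the length trend removed from each library the R55 differences were -0.17 for Mt1, -0.12 for Mt2 and -0.15 for Mt3, and the R33 differences 0.36, 0.36 and 0.13.

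**Figure D3:**
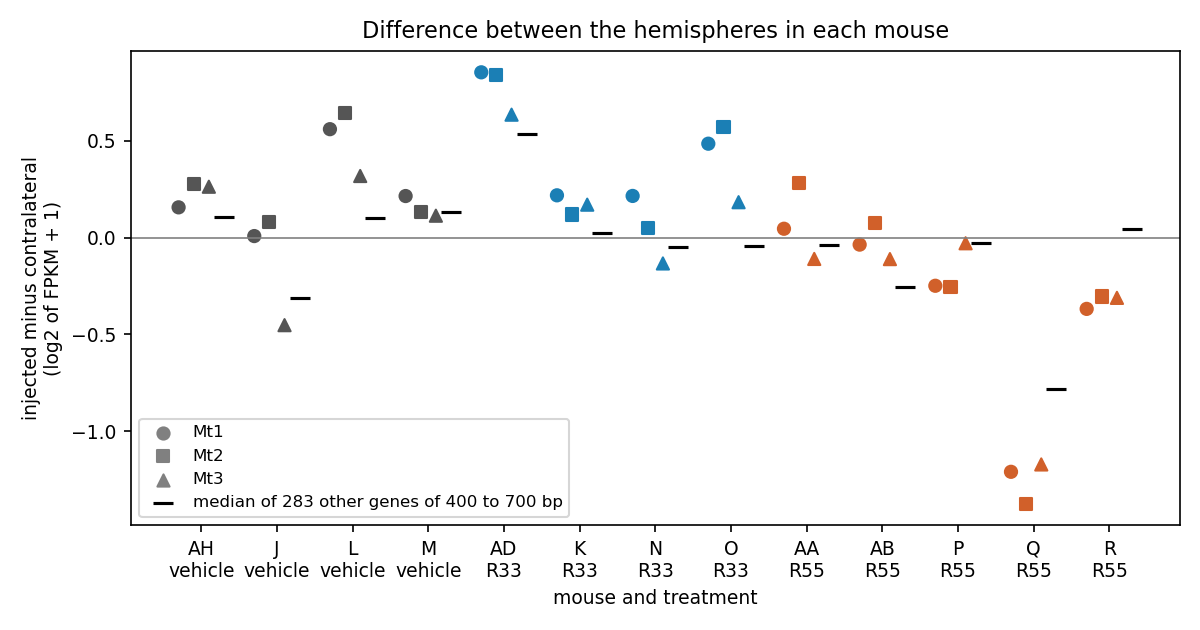
Injected minus contralateral difference of log2(FPKM + 1) for Mt1, Mt2 and Mt3 in the 13 mice with both hemispheres, colored by treatment, with the median of 283 other genes of 400 to 700 bp as a black dash. R55 mouse Q lies lowest with values from -1.38 to -1.17 and R33 mouse AD highest with 0.63 to 0.85, and the dashes of these mice lie at -0.78 and 0.53.

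The difference of the injection effect between treatments was tested as a contrast of the 6 groups in the same limma fit. For R33 minus vehicle it was 0.21 for Mt1 (SE 0.301), 0.16 for Mt2 (SE 0.362) and 0.15 for Mt3 (SE 0.261), with no call against 0.0% of tested genes and none past the unadjusted threshold against 0.378%. For R55 minus vehicle it was -0.60 for Mt1 (SE 0.293, unadjusted p = 0.0521), -0.60 for Mt2 (SE 0.352, unadjusted p = 0.102) and -0.41 for Mt3 (SE 0.254, unadjusted p = 0.122). None of these was called, against 0.0% of tested genes, and none passed the unadjusted threshold, against 1.84%. With the mouse as a replicate block the unadjusted p of Mt1 was 0.0215 and its adjusted p 0.806 in limma, so the call did not change. In that fit 770 of 12976 tested genes passed the unadjusted threshold. Without mouse Q the R55 minus vehicle values were -0.39, -0.33 and -0.20, and with the length trend removed -0.38, -0.38 and -0.19.

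The contrast of R55 minus R33 was added after these values were seen. It was -0.81 for Mt1 (SE 0.285, 95% interval -1.39 to -0.22, unadjusted p = 0.00910), -0.76 for Mt2 (SE 0.342, unadjusted p = 0.0369) and -0.56 for Mt3 (SE 0.247, unadjusted p = 0.0322) in limma, with an adjusted p of 0.875 for each. None was called, against 0.0% of tested genes, while 3 of 3 members passed the unadjusted threshold, against 4.43%. The members vary together, as shown by the correlations over mice, so these are not 3 separate observations. Genes of 400 to 700 bp had a median of -0.30 in this contrast, against -0.01 for all tested genes. Without mouse Q the values were -0.59, -0.49 and -0.35, and with the length trend removed -0.53, -0.48 and -0.28. With the length trend removed Mt2 had an unadjusted p of 0.0723 in limma, so 2 of 3 members passed, against 454 of 12976 tested genes. With the mouse as a replicate block as well 1 of 3 passed, Mt1, against 1110 of 12976 tested genes. The unadjusted p of Mt1, Mt2 and Mt3 were then 0.00437, 0.0632 and 0.0786 in limma. By mouse, the Mt1 differences of the 4 R33 pairs, 0.21 to 0.85, did not overlap those of the 5 R55 pairs, -1.21 to 0.05. Those of Mt2 overlapped, with 0.05 to 0.84 after R33 and -1.38 to 0.28 after R55, as did those of Mt3, with -0.13 to 0.63 and -1.17 to -0.03. How many of all tested genes separate by mouse as Mt1 does was not counted, so no share stands beside it. With the mouse as a replicate block 1514 of 12976 tested genes passed the unadjusted threshold in this contrast.

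**Figure D4:**
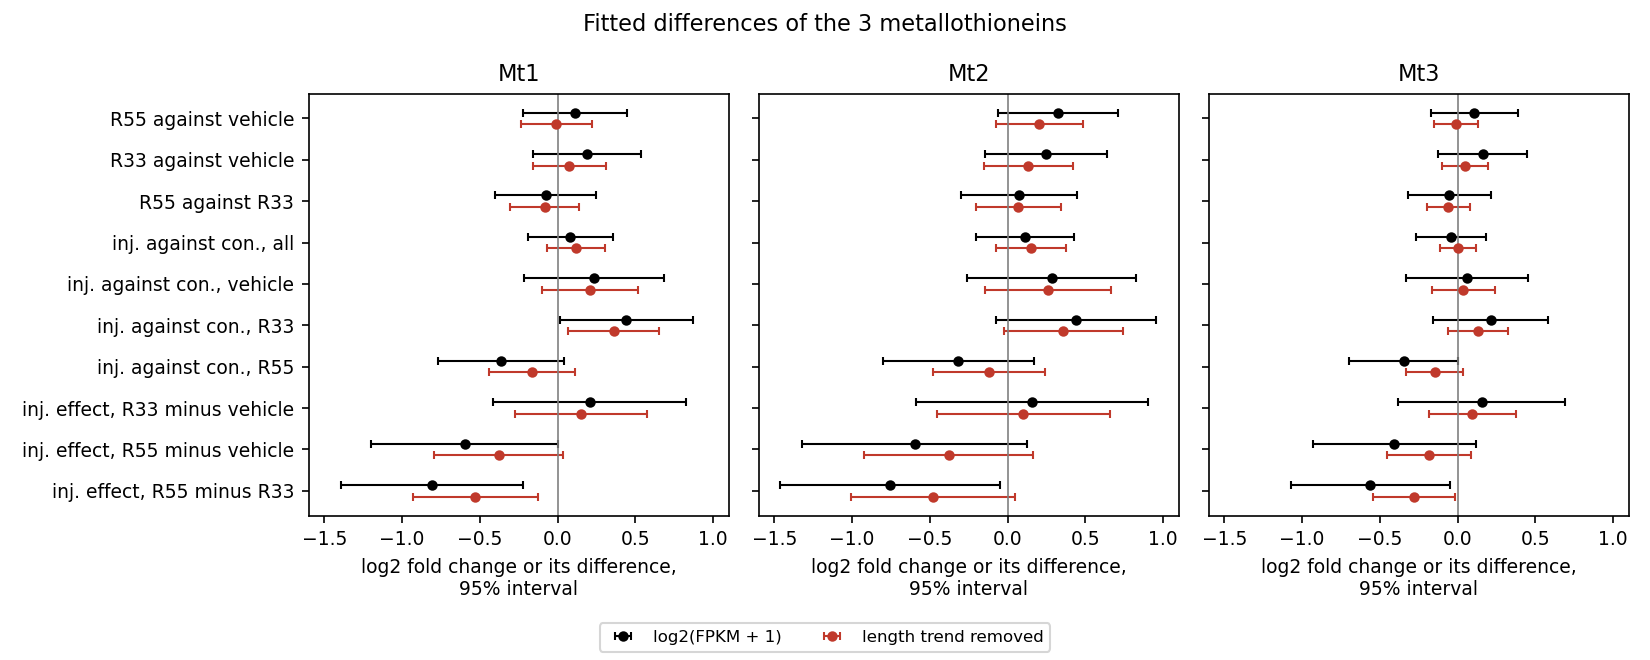
Fitted log2 fold change (or, in the lower 3 lines, the difference of 2 such changes) of each member in 10 comparisons, with 95% intervals, from log2(FPKM + 1) in black and with the trend on transcript length removed in red. Most intervals include 0, no value passed an adjusted p under 0.05, and within each panel the black value farthest from 0 is the R55 minus R33 injection effect, at -0.81 for Mt1, -0.76 for Mt2 and -0.56 for Mt3.

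Within the series of 1-letter mice the mean injected minus contralateral difference of Mt1 was 0.26 after vehicle, 0.31 after R33 and -0.61 after R55, with 3 mice each. In 2-letter mice it was 0.16 in 1 vehicle mouse, 0.85 in 1 R33 mouse and 0.00 over 2 R55 mice. For Mt3 the 1-letter means were -0.01, 0.07 and -0.50, and the 2-letter values 0.26, 0.63 and -0.11. For Mt2 the 1-letter means were 0.28, 0.25 and -0.64, and the 2-letter values 0.28, 0.84 and 0.18. Mouse Q is one of the 1-letter R55 mice, and the other two, P and R, measured -0.25 and -0.37 for Mt1 and -0.03 and -0.31 for Mt3. The 2-letter series holds too few mice for a comparison.

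The levels of the 3 genes were correlated. Between mice, the mean log2 level of Mt1 correlated with that of Mt2 at r = 0.91 (rho = 0.84) and with that of Mt3 at r = 0.92 (rho = 0.91), and Mt2 with Mt3 at r = 0.84 (rho = 0.84), over 14 mice. The adjusted p of these Pearson correlations ran from 3e-05 to 0.00022 in permutation tests, adjusted over 6 relations. The smallest raw p of 1e-05 is the smallest that 100000 permutations can give. Differences between the hemispheres correlated at r = 0.98 for Mt1 and Mt2 (rho = 0.85), 0.92 for Mt1 and Mt3 (rho = 0.81) and 0.91 for Mt2 and Mt3 (rho = 0.84) over 13 mice, with an adjusted p of at most 0.00018 in permutation tests.

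Without the 2 mice farthest from the median, the correlations between mice were 0.75, 0.91 and 0.73, and those of the hemisphere differences 0.92, 0.70 and 0.64, in the same order of pairs. Among 1-letter mice alone, 9 in number, they were 0.87, 0.94 and 0.75 between mice and 0.99, 0.92 and 0.90 for the hemisphere differences. With the length trend removed, an alternative chosen after seeing the data, they were 0.84, 0.91 and 0.73, and 0.94, 0.77 and 0.77. All of these kept an adjusted p of Pearson's r under 0.05 in the permutation tests, exact for the 9 mice. The rank correlation of Mt2 with Mt3 between mice had an adjusted p of 0.0589 in the exact permutation test over the 9 mice and 0.0803 with the length trend removed.

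**Figure D5:**
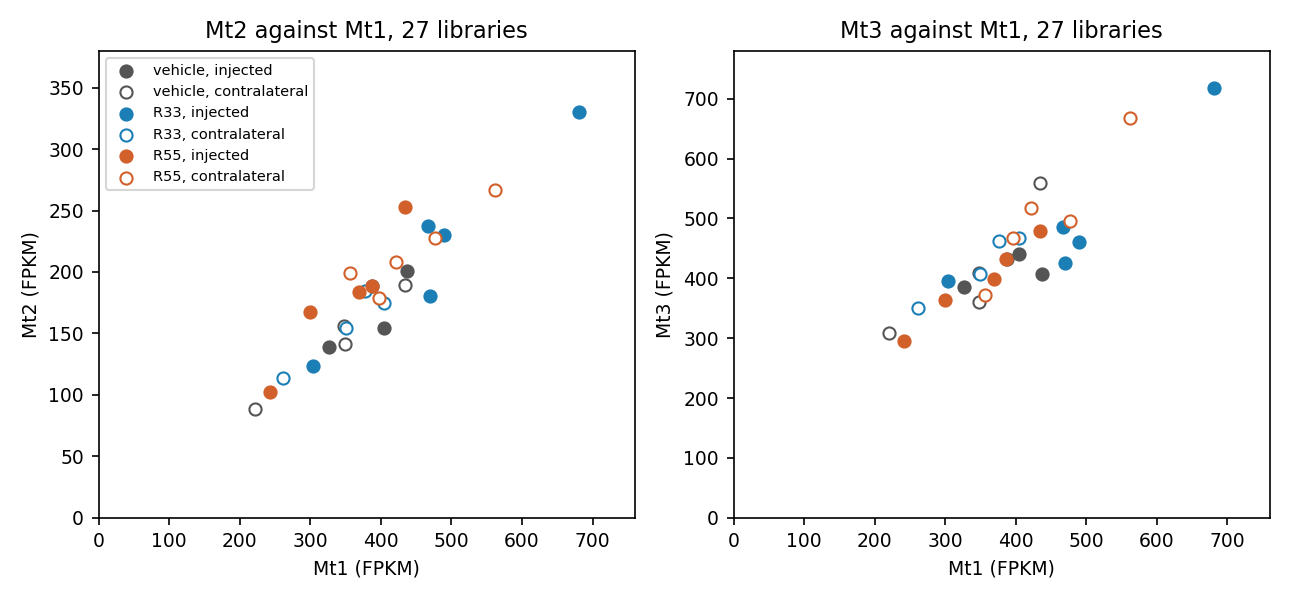
FPKM of Mt2 (left) and Mt3 (right) against FPKM of Mt1 in the 27 libraries, filled circles for injected and open circles for contralateral hemispheres, colored by treatment. Mt2 follows Mt1 at a ratio of 0.383 to 0.581, and the injected hemisphere of R33 mouse AD lies at the upper end in both panels.

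The genes most like each member were sought by Pearson correlation of log2 values over the 27 libraries, of which most come in pairs from 1 mouse, as a description. For Mt1 they were Mt2 (r = 0.93), Cst3 (0.92), Tsc22d4 (0.91), Mt3 (0.90) and S100a13 (0.90). Cst3 encodes cystatin C, a secreted protease inhibitor abundant in astrocytes and microglia. For Mt2 they were Mt1 (0.93), Lxn (0.92), Prdx6 (0.91), Tsc22d4 (0.91) and Oat (0.90), of which Prdx6 encodes an antioxidant peroxiredoxin expressed in astrocytes and Oat ornithine aminotransferase. Among those nearest to Mt3 were Rps6 (0.94), Rps13 (0.94), Rps25 (0.94) and Rps23 (0.93), which encode proteins of the small ribosomal subunit. Over all tested genes the median r was between 0.08 and 0.10 for each member. Many genes followed Mt3 more closely than the other metallothioneins did, since Mt1 (0.90) was in place 45 and Mt2 (0.84) in place 212 of 12975 genes, and the 99th percentile of r with Mt3 was 0.87.

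Of these ribosomal protein genes Rps23, Rps13 and Rps25 are short, with 555, 582 and 684 bp, and Rps6 has 1394 bp. With the length trend removed, the 5 nearest genes of Mt3 were Cst3 (0.87), Bckdha (0.82), Nf2 (0.81), Cyp4v3 (0.81) and Mt1 (0.80), and none was a ribosomal protein gene. Mt1 and Mt2 stayed each other's nearest gene on that scale, with r = 0.86, and Mt2 was in place 86 for Mt3. Among the genes nearest to Mt1 was then Slc41a1 (0.82), which encodes a magnesium transporter.

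Around the metallothioneins, 34 genes of zinc and copper handling were listed, all in the table and 29 of them tested. Mtf1, the zinc sensor that binds metal response elements, ranged from 3.61 to 4.78 FPKM over all libraries and measured a log2 fold change of -0.03 (SE 0.0501) for R55 against vehicle. Slc30a1, which exports zinc and is itself an Mtf1 target, ranged from 4.79 to 8.95 FPKM and measured -0.12 (SE 0.0990). Of the 29 tested genes 0 passed the unadjusted threshold for R55 against vehicle, against 8.45%, and their median log2 fold change of 0.03 was the same as that of all tested genes, 0.03. For R33 against vehicle 2 passed higher and 1 lower, against 5.87% of all tested genes. No gene of the list was called in any of the 10 comparisons.

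Between hemispheres over all treatments, Slc39a14, a zinc importer of the plasma membrane, had the smallest unadjusted p of the list, with a log2 difference of 0.18 (SE 0.0503, unadjusted p = 0.00168, adjusted p = 0.9999 in limma). Slc39a1, another importer, measured 0.14 (SE 0.0670, unadjusted p = 0.0468). In R55 mice Slc39a14 measured 0.24 (SE 0.0844, unadjusted p = 0.00945), in the opposite direction to the metallothioneins, and Slc31a2, a copper transporter, -0.23 (SE 0.110, unadjusted p = 0.0465). In R33 mice Slc39a1 measured 0.28 (SE 0.116, unadjusted p = 0.0242) and Slc39a10 -0.52 (SE 0.196, unadjusted p = 0.0140). Of the 29 tested genes 2 passed the unadjusted threshold higher and 0 lower over all treatments, against 3.47% of all tested genes. In R55 mice 1 passed higher and 1 lower, against 3.66%, and in R33 mice 1 higher and 1 lower, against 2.84%. The list medians were 0.00, 0.03 and 0.01 in the same order. The median correlation of the 29 genes with Mt1 over the libraries was -0.03, against 0.08 for all tested genes.

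Other known inputs to Mt1 and Mt2 were read through lists of their target genes, some of which stand in more than one list. Of 18 tested glucocorticoid-responsive genes 2 passed the unadjusted threshold higher and 0 lower for R55 against vehicle, where 8.45% of all tested genes passed. These were Tsc22d3, which encodes the glucocorticoid-induced leucine zipper protein GILZ, with 0.47 (SE 0.0882, adjusted p = 0.0916 in limma), and Dusp1, a phosphatase of MAP kinases, with 0.56 (SE 0.211, adjusted p = 0.552). Tsc22d3 was not called. The median of the list was 0.05 against 0.03 for all tested genes, and its median correlation with Mt1 was 0.12. Between the hemispheres of R55 mice 0 of the 18 passed higher and 3 lower, against 3.66% of all tested genes, with a list median of 0.02. These were Sult1a1, a sulfotransferase, with -0.38 (SE 0.170), Arrdc2 with -0.25 (SE 0.111) and Tsc22d3 with -0.23 (SE 0.107). For R55 minus vehicle in the injection effect 2 passed lower, against 1.84%, Arrdc2 with -0.46 (SE 0.167, unadjusted p = 0.0108) and Tsc22d3 with -0.43 (SE 0.161, unadjusted p = 0.0128), both with an adjusted p of 0.999 in limma.

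Of 19 tested genes of the oxidative stress response through Nrf2, 4 passed the unadjusted threshold higher and 0 lower for R55 against vehicle, where 8.45% of all tested genes passed, with a list median of 0.15 against 0.03 for all tested genes. Srxn1, which restores oxidized peroxiredoxins, measured 0.16 (SE 0.0657) and Cat, which encodes catalase, 0.15 (SE 0.0657). For the injected hemisphere of R33 mice 6 passed higher and 0 lower, against 2.84% of all tested genes, with a median of 0.19 against 0.00. Nqo1, a quinone reductase, measured 0.50 there (SE 0.132, unadjusted p = 0.00094, adjusted p = 0.999 in limma). The list median differed between these mice, with 0.43 in AD, 0.16 in O, 0.12 in N and 0.003 in K. In R55 mice 1 passed higher and 0 lower, against 3.66% of all tested genes, with a median of 0.03 against -0.01. The gene that passed was Gclm, with 0.24 (SE 0.0815, unadjusted p = 0.00674 in limma). Txnrd1 measured 0.17 (SE 0.0908) and Mafg 0.16 (SE 0.0915), while Fth1, the heavy chain of ferritin, measured -0.33 (SE 0.174), and these did not pass. For R55 minus R33 in the injection effect, Nqo1 measured -0.71 (SE 0.182, unadjusted p = 0.000656) and Fth1 -0.74 (SE 0.254, unadjusted p = 0.00769), the same direction as the 3 metallothioneins, with 1 list gene past the threshold higher and 3 lower, against 4.43% of all tested genes, and an adjusted p of 0.875. The median correlation of the list with Mt1 was 0.53.

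Of 12 tested genes of interleukin 6 and Stat3 signalling, 6 passed the unadjusted threshold higher in the injected hemisphere over all treatments and 0 lower, against 3.47% of all tested genes, among them Stat3 with 0.29 (SE 0.0697, unadjusted p = 0.000313, adjusted p = 0.944 in limma) and Socs3, its feedback inhibitor, with 0.39 (SE 0.149). The median of the list was 0.23, against 0.00 for all tested genes. For R55 against vehicle 0 of 12 passed in either direction, and the list median was 0.02 against 0.03. Between the hemispheres of R33 mice 5 passed higher and 0 lower, against 2.84%, with a list median of 0.23, and Mt1 measured 0.44. In R55 mice 1 passed higher and 0 lower, against 3.66%, with a list median of 0.21. There Stat3 measured 0.31 (SE 0.119), while Mt1 measured -0.36. The list median was 0.43 in R55 mouse AA, 0.44 in AB, 0.25 in R, -0.04 in P and -0.004 in Q. The median correlation of the list with Mt1 over libraries was 0.31, against 0.08 for all tested genes.

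Because bulk tissue was measured, a change in the number of cells of a type and a change in RNA per cell cannot be told apart. The 10 cortical markers summed to 243.5 to 375.5 FPKM and the 11 neuronal markers to 3473 to 5116 FPKM over the libraries, so none of the libraries lacked them. Markers of endothelium, microglia, oligodendrocytes and meninges or choroid plexus also passed the expression filter. Astrocyte markers were read first because Mt1 and Mt2 in the brain are found mainly in astrocytes. The 17 homeostatic astrocyte markers had a median log2 fold change of 0.13 for R55 against vehicle, against 0.03 for all tested genes, with 15 of 17 above 0, and 2 passed the unadjusted threshold, against 8.45% of all tested genes, Aldh1l1 with 0.38 (SE 0.143) and Acsl6 with 0.18 (SE 0.0838). For R33 against vehicle their median was 0.13 with 3 past the threshold, against 5.87%. Their summed level ran from 1513 to 2895 FPKM over vehicle libraries and from 2078 to 3725 over R55 libraries. Between hemispheres the median of the homeostatic astrocyte markers was 0.10 in vehicle mice, 0.02 in R33 mice and -0.03 in R55 mice. Their median correlation with Mt1 over libraries was 0.36, against 0.50 for the 11 microglial markers and 0.08 for all tested genes. The part of these cells in the metallothionein values was not tested.

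Of 13 tested reactive astrocyte markers, 9 passed the unadjusted threshold higher in the injected hemisphere over all treatments and 0 lower, against 3.47% of all tested genes, with all 13 above 0 and a median of 0.27 against 0.00 for all tested genes, and 0 were called. The median was 0.34 in vehicle mice, 0.30 in R33 mice and 0.28 in R55 mice. Vim, an intermediate filament gene, measured 0.45 (SE 0.178) and Lcn2, an iron-binding lipocalin, 0.93 (SE 0.341). In R55 mice the fitted median of these markers was thus above 0, where the 3 metallothioneins measured below 0, but the mice differed. The marker median was 0.83 in AA, 0.84 in AB, 0.02 in R, -0.08 in P and -0.33 in Q. In the same order Mt1 measured 0.05, -0.04, -0.37, -0.25 and -1.21, and Mt2 0.28, 0.07, -0.305, -0.25 and -1.38. Mt3 measured -0.11, -0.11, -0.31, -0.03 and -1.17. The group values therefore do not show opposite movement of markers and metallothioneins within mice. In R33 mouse AD the marker median was 1.60. The median correlation of these markers with Mt1 over libraries was 0.58.

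Markers of some other cell types had the signs of the metallothioneins in the R55 and R33 injection effects and others did not, while the medians of all tested genes were -0.01 and 0.00. The 9 oligodendrocyte markers had a median log2 difference between hemispheres of -0.34 in R55 mice, with 9 of 9 below 0, and of 0.31 in R33 mice, with 9 of 9 above 0. The 12 tested markers of meninges, fibroblasts and choroid plexus had medians of -0.30 and 0.45, and the choroid plexus gene Ttr ranged from 2.09 to 1616 FPKM over the libraries. The summed level of this list ran from 475 to 1296 FPKM in injected R55 libraries, from 462 to 2055 in contralateral ones, and from 927 to 2501 in injected R33 libraries. The 11 microglial markers had medians of 0.02 in R55 mice and 0.22 in R33 mice, and the 11 neuronal markers 0.08 and -0.08. Of the 5 red blood cell genes 1 was tested, Alas2, whose difference was -0.28 in R55 mice and 0.49 in R33 mice, and the 12 endothelial markers had medians of -0.03 and -0.26. The part of these cell types in the metallothionein values was not tested.

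The spread of the members within the groups was large for genes of their level. The within-group SD on the log2 scale was 0.32 for Mt1, 0.40 for Mt2 and 0.28 for Mt3, and 88.9%, 94.0% and 82.8% of tested genes had a lower one. The 500 genes nearest in level to each member had a median SD of 0.21, 0.20 and 0.21, and 88.2%, 95.4% and 77.0% of these had a lower one than the member. With the length trend removed the SE of the R55 against vehicle comparison was 0.111 for Mt1, 0.136 for Mt2 and 0.0693 for Mt3, in place of 0.164, 0.187 and 0.135.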

How the data were processed

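The authors took RNA from the cortical blocks, made stranded mRNA libraries, aligned the reads to GRCm39 by HISAT2 and deposited FPKM for 26264 gene symbols in 32 libraries. The counting tool, its annotation and its treatment of shared reads are not given in the sources used here. The deposited values above 0 corresponded to whole fragments in 100.0% of cases within 0.01, which gave fragments (15932196 to 38077026 per library) and gene lengths (Mt1 542, Mt2 556, Mt3 538 bp).

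Labels gave treatment, hemisphere and mouse for 27 libraries from 14 mice, and 5 libraries of the table were not used. The members and gene lists were chosen with earlier results of these data known. limma 3.58.1 in R 4.3.3 (empirical Bayes with a trend on expression, Benjamini-Hochberg) was run on log2(FPKM + 1) over the 12976 genes averaging at least 1 FPKM, with treatment and hemisphere as additive factors or as 6 group means, and called a gene at an adjusted p under 0.05. The replicate label marks 1 animal, so it pairs the hemispheres. The correlation of their deviations from the group means ran from -0.08 in mouse Q to 0.65 in mouse AH over 13 mice. Alternatives were the mouse as a replicate block, its correlation modelled (0.347), 1 value per mouse, a pseudocount of 0.1, no filter on low genes, median-of-ratios size factors, limma voom on the recovered fragments, the number of label letters as a covariate, each mouse left out, and removal of the length trend within each library (lowess on transcript length, span 0.3). The R55 minus R33 contrast of the injection effect, the block combined with length removal and the length removal for correlations were added after seeing the data.

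All values of the members were described, with the 5 genes of highest correlation with each, of which 1 is not reported here. From each list up to 4 genes with the smallest unadjusted p in a comparison could be named, and Mtf1 and Slc30a1 always. Correlations over mice were tested two-sided with 100000 permutations, or exactly for 9 mice, in scipy 1.17.1. Sequences and motif matches came from GRCm39 with GENCODE release M39, with 1 consensus coding transcript per gene. The fit was also run on simulated fragments, drawn independently for each library without a mouse effect or a length trend. That run therefore cannot tell how the fit behaves with those features.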

Additional observations from a re-analysis of the deposited data

Results flagged for a closer look

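Of 42 groups of 4 or 5 values checked for a value far from the others by Dixon's test at the 95% level, 2 held one, and chance gives about 1 in 20. The first was Mt3 in the injected hemisphere after R33, where mouse AD measured 718 FPKM and the other 4 mice 395 to 486. The second was the difference of Mt3 between the hemispheres after R55, where mouse Q measured -1.17 on the log2 scale and the other 4 mice -0.31 to -0.03. In both mice Mt1 and Mt2 were also at the end of their group, with 681 and 331 FPKM in AD and differences of -1.21 and -1.38 in Q. Over the other 283 genes of 400 to 700 bp the median difference between hemispheres was 0.53 in AD and -0.78 in Q, the highest and the lowest of the 13 mice.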

How the results depend on the processing

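No member was called in any of the 10 comparisons under any alternative, where the smallest adjusted p was 0.346. The log2 fold changes of the members kept their direction in 670 of 681 alternative fits. With the length trend removed, R55 against vehicle measured -0.0071 for Mt1 and -0.0126 for Mt3 in place of 0.11 and 0.11, and the cause of the length trend was not tested. With mice left out in turn, the ranges that crossed 0 were -0.0228 to 0.2092 for Mt1 in R55 against vehicle (below 0 without L), -0.2286 to 0.011 for Mt1, -0.1012 to 0.1976 for Mt2 and -0.1378 to 0.04 for Mt3 in R55 against R33 (the other sign without AD for Mt1, K for Mt2, and AD or P for Mt3), -0.0873 to 0.0502 for Mt3 between hemispheres (without Q), -0.026 to 0.2308 for Mt3 between hemispheres after vehicle (without L or AH) and -0.0174 to 0.2533 for Mt3 in the injection effect of R33 minus vehicle (without J). With the mouse as a replicate block, the paired unadjusted p for injected against contralateral was 0.0222 for Mt1 after R33 and 0.0331 for Mt1 and 0.0480 for Mt3 after R55, in place of 0.0429, 0.0745 and 0.0511, with adjusted p of 0.777, 0.512 and 0.520 in limma, and it changed no call of a member. In that paired fit 816 of 12976 tested genes passed the unadjusted threshold after R33 and 1236 after R55, in place of 368 and 475. With the length trend removed as well, Mt1 after R55 measured -0.17 (unadjusted p = 0.101). Pearson's correlations between members kept their direction and an adjusted p under 0.05 under the alternatives run. The SE of differences between treatments was 0.131 to 0.192 in the main fit, which has no term for the mouse. With the correlation within mice modelled it was 0.164 to 0.231, and with 1 value per mouse 0.120 to 0.199. The intervals given come from the main fit. With 4 or 5 mice per treatment, differences within them were not detectable.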
